A study of Homo sapiens with 26 samples.

Results

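In HCT116 cells treated with Nutlin-3a, 345 regions carried an H3K27ac peak at 1 h and still at 10 h but none before treatment. Before treatment 84.1% of them already had H3K4me1, against 82.3% of regions with H3K27ac at 1 h only and 54.9% of all merged regions. They were wider than all merged regions, at a median of 1586 bp against 636 bp, but narrower than regions called in all 6 WT lists, at 2385 bp. By the rule each of them merges peaks from several lists, while a merged region may come from a single list. The part of this in the width was not tested. Of the 345, 83.5% lay over no promoter, close to the 80.3% of all merged regions. H3K27ac, acetylation of lysine 27 of histone H3, marks active promoters and enhancers. The 345 regions were taken from 87570 regions made by merging all 10 H3K27ac peak lists of the series. Regions were chosen by their peak calls. A region was kept if it was called, by an overlap of at least 1 bp, in both WT lists at 1 h and both at 10 h, and in neither WT list at 0 h. This rule is itself a measurement in the 6 WT lists, and 0.394% of all merged regions passed it. Its count and the WT peak strengths below are therefore descriptions without a test. The H3K4me1 lists took no part in the choice. Calls in the HCT116 line named for RAD21 were not part of the rule, but that line's peaks were among those merged. With only the 6 WT lists merged, 363 regions passed the rule. Of these, 52.9% were called in both 0 h lists of that line and 17.6% were gained there at 1 h.

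HCT116 is a human colorectal carcinoma line with wild-type p53. The labels give 3 WT groups for H3K27ac and for H3K4me1, which are DMSO, called 0 h here, Nutlin3a for 1 h and Nutlin3a for 10 h. They give a further pair of H3K27ac groups in the line HCT116_RAD21, DMSO and Nutlin3a for 1 h. Each of these 8 groups had 2 replicates, giving 10 H3K27ac and 6 H3K4me1 lists, and DMSO is the drug vehicle. By the study's methods the RAD21 line carries a degron tag on RAD21, so that the auxin analog 5-Ph-IAA degrades it. The study describes its H3K27ac libraries from this line as RAD21-depleted, with the degrader given ahead of Nutlin-3a, while the labels of these libraries name DMSO or Nutlin3a only. The 0 h lists of the line are therefore read as before Nutlin-3a and not as untreated, and the line, 1 engineered derivative of HCT116, cannot be told apart from the depletion.

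Nutlin-3a keeps the ubiquitin ligase MDM2 from binding p53, so that p53 accumulates and binds its response elements, which consist of a pair of decamers. Many enhancers carry H3K4me1, monomethylation of lysine 4 of histone H3, before they become active and gain H3K27ac. RAD21 is a subunit of cohesin, the ring-shaped complex that holds chromatin loops and so brings enhancers near promoters.

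The lists differ in how they were made, and this touches every gained region. In 3 WT lists, both at 0 h and replicate 1 at 1 h, the peak names lack the word input, which all other lists carry. The 3 lists held 31640 to 33976 peaks, against 39092 to 49127 in the other 7 H3K27ac lists. The local background that each list's fold and p-value imply rose with peak height in these 3 lists (Spearman rho 0.846 to 0.890 over 5000 peaks a list) and ran from -0.509 to 0.515 in the other 7. Both 0 h lists are of the first form and both 10 h lists of the second, so treatment and list form cannot be told apart between 0 h and 10 h. By the study's methods an input served as control in peak calling, but whether it did so for these 3 lists could not be settled from the files. Absence at 0 h below means absence from lists of this form. Only 1 h has a list of each form. Of the 8 epithelial genes checked, all 8 had a promoter peak in all 10 H3K27ac lists, and of the 7 genes of other lineages, CD79A had one in 1 list and the others in none.

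The sequences below are 300-base windows at the H3K27ac summit of 10 h replicate 1, from the GRCh37 reference, plus strand, with a p53 response element in capitals. The first 3 hold the elements without a mismatch among the 345 regions. The last lies over the promoter of EDN1, the gene of the vasoconstrictor peptide endothelin-1, was gained in the RAD21 line too, and holds no such element. Coordinates are chr1:68191031-68191330 for GADD45A, chr5:56363311-56363610 for GPBP1, chr6:127907582-127907881 for C6orf58 and chr6:12289748-12290047 for EDN1.
GADD45A, 38169 bp from its start site, in an intron of GNG12: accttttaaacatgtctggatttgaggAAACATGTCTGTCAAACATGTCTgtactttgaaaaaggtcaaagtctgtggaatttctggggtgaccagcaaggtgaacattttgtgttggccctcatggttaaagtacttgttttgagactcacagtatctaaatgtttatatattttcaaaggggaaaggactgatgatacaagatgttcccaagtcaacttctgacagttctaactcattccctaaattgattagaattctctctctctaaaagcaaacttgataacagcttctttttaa
GPBP1, 105575 bp away, intergenic: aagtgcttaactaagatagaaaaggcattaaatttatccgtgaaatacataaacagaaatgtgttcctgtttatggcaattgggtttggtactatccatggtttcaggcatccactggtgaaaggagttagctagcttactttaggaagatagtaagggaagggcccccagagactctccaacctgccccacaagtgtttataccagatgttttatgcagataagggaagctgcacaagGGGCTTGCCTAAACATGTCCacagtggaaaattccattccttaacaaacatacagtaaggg
C6orf58, intron: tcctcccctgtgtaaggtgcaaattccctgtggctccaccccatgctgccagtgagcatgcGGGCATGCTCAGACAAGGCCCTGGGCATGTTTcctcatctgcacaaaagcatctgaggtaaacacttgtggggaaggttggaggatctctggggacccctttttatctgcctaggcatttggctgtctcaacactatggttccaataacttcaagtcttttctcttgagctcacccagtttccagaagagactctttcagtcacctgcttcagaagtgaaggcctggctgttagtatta
EDN1, promoter: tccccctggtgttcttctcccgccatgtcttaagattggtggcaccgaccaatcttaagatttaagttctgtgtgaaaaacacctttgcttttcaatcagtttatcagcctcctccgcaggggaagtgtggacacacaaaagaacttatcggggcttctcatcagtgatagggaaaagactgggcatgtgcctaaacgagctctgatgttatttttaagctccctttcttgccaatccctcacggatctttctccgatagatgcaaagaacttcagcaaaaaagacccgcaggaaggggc

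The regions ranked low in 1 h replicate 1 and nearer the middle in 1 h replicate 2 and both 10 h lists. Strengths were compared as percentiles, the share of a list's peaks with a smaller −log10 p-value than the strongest peak in the region. The median percentile of the 345 regions was 17.6 in 1 h replicate 1 (range 0.0348 to 59.1) and 43.2 in 1 h replicate 2 (0.201 to 81.1). At 10 h it was 51.9 in replicate 1 (1.20 to 82.4) and 49.2 in replicate 2 (1.60 to 83.0). The 10 h lists thus lay close together, while the 1 h lists, which are of different form, stood further apart from each other than replicate 2 stood from 10 h. The median fold over local background ran in the same order, at 3.23, 4.54, 4.76 and 4.80. The highest percentile of any of the regions in a WT list was 83.0. Peak strength does not tell more cells with the mark from more of the mark per cell.

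**Figure D1:**
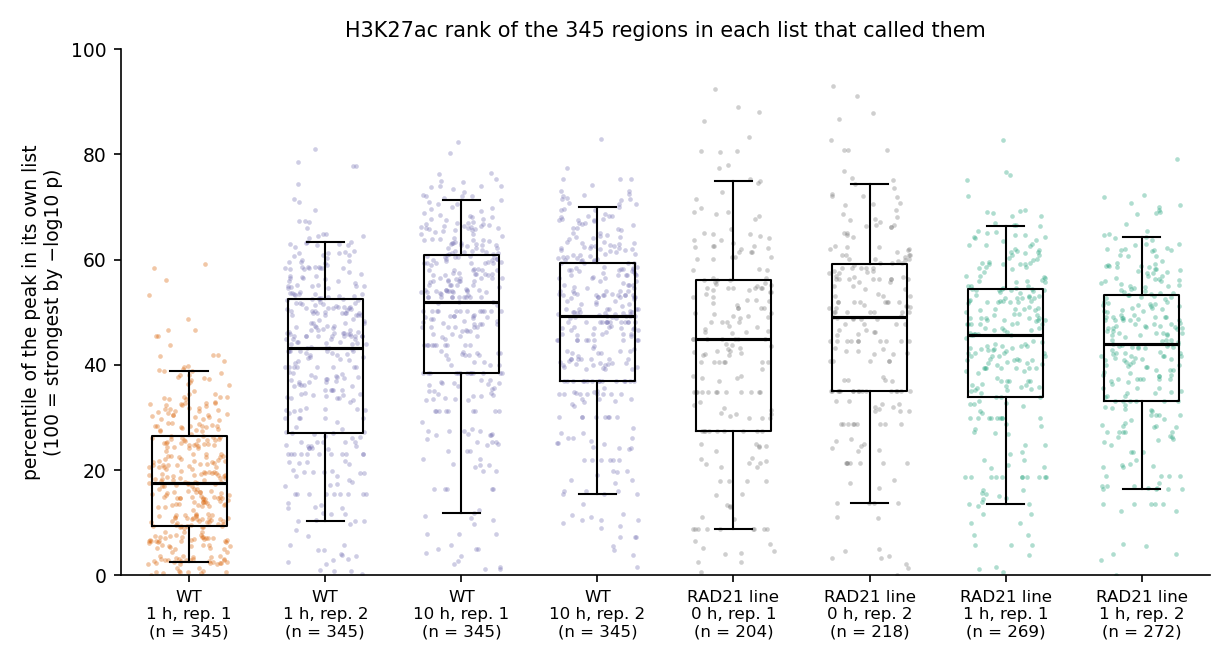
Percentile by −log10 p-value of the 345 regions within each H3K27ac list (y axis, 0 to 100) for the 4 WT Nutlin-3a lists and the 4 lists of the RAD21 line (x axis), over the regions called in that list. Points are regions, boxes span the quartiles with the median as a line, whiskers reach the percentiles 5 and 95 of the points, and 1 h replicate 1 is the lowest box, at a median of 17.6.

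Of the 345 regions, 288 (83.5%) had a higher mean percentile at 10 h than at 1 h, with a median rise of 18.2 points. The 20532 regions called in all 6 WT lists rose too, 78.5% of them, by a median of 6.51 points. Set against 1 h replicate 2 alone, which shares its list form with 10 h, 218 of the 345 (63.2%) were higher at 10 h, and 66.5% of the regions called throughout. The median rise was then 4.75 and 2.78 points. In 174 regions (50.4%) both 10 h percentiles lay above both 1 h percentiles, and in 11 below. Replicate 1 at 1 h held the lowest of the 4 percentiles in 269 (78%). Its local background at the regions was 2.32 times the 1st percentile of the list's backgrounds, against 1.14 to 1.37 times in the other lists that called regions, and the part of this in the result was not tested.

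**Figure D2:**
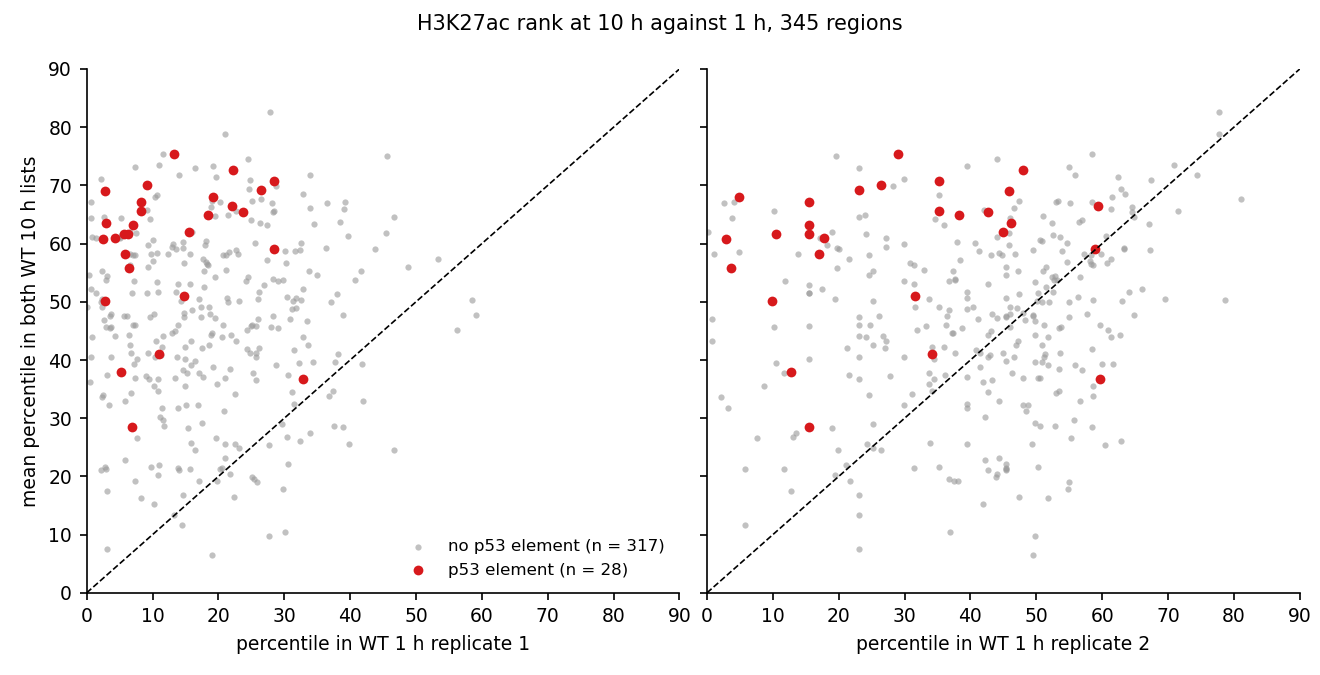
Mean percentile in both WT lists at 10 h (y axes) against the percentile in 1 h replicate 1 (left) or 1 h replicate 2 (right, x axes) for each of the 345 regions, with dashed lines of equal rank. Most points lie above the line on the left, 218 do so on the right, and the 28 regions with a p53 response element (red, large) lie above it on the right in 27 cases. These 28 were picked by windows at a 10 h summit.

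The largest rise was at an exon of MDN1 nearest to LYRM2, a gene for a mitochondrial protein. Its percentiles were 0.681 and 3.86 at 1 h, then 60.2 and 68.7 at 10 h, with no overlap, and no list of the RAD21 line called it. At IGF2BP2, which encodes an RNA-binding protein, they were 2.53 and 2.94 at 1 h, then 65.7 and 56.0 at 10 h. The exonic region in UBE2G2, a ubiquitin-conjugating enzyme, stood at 6.59 and 0.201 and then at 60.5 and 63.4. These regions were barely called at 1 h. The opposite course was seen at COA1, whose product assembles cytochrome c oxidase, with 27.6 and 49.9 at 1 h and 9.68 and 9.95 at 10 h. At GRHL3, an epithelial transcription factor gene, the percentiles were 29.8 and 54.8 at 1 h, then 19.8 and 16.0 at 10 h. In both, each 10 h list lay below each 1 h list. The region nearest to IFNE, an epithelial interferon gene, had 19.1 and 49.6 at 1 h and 1.57 and 11.4 at 10 h.

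The 10 regions with the highest mean percentile were mostly intergenic, exonic or intronic. The strongest lay 2143 bp from the start of C11orf24, with percentiles of 27.9 and 77.8 at 1 h and 82.4 and 83.0 at 10 h. Next to PTMA, the gene of the chromatin protein prothymosin alpha, they were 26.4 and 81.1 at 1 h, then 63.8 and 71.5 at 10 h. The region 27272 bp from ACTG1, cytoplasmic actin gamma, had 58.5 and 78.6 at 1 h and 53.6 and 47.1 at 10 h. Of these only ACTG1 ranked higher in both lists at 1 h. In an intron of TJP1, the tight junction protein ZO-1, the percentiles were 39.0 and 61.3 and then 66.0 and 66.1. A region 166084 bp from NR5A2, a nuclear receptor gene, had 28.4 and 71.5 at 1 h and 65.5 and 65.7 at 10 h and was in no list of the RAD21 line. The 5 others lay nearest to FAM27E3, TNFRSF13B, CRYBA4, SWI5 and ARHGAP18, all with a higher percentile in each 10 h list than the mean at 1 h.

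By class, 151 regions (43.8%) lay in introns, 86 (24.9%) over exons, 51 (14.8%) between genes, 35 (10.1%) over promoters of other transcripts and 22 (6.38%) over promoters of protein-coding genes. Among all merged regions the shares were 49.7% in introns, 17.9% over exons, 12.7% between genes and 4.97% over other promoters. A promoter is taken as 1000 bp before to 200 bp after a start site. The share over coding promoters was 52.3% among regions called in all 6 WT lists, 10.3% among the 778 called at 1 h but not at 10 h, 1.89% among the 6941 called at 10 h but not at 1 h, and 14.7% among all regions. Where a list's peaks had to cover 50% or more of a region to count as a call, the share among the regions kept was 44.7%. That limit held at 0 h too, so regions with a 0 h peak over less of their width were also kept. The 44.7% is therefore not a share of regions without H3K27ac at 0 h. The median distance to a coding start site was 19772 bp. A median of 7401 bp separated a region from the nearest one called in both 0 h lists, and 192 (55.7%) lay within 10 kb of one, against 29.6% of the 1 h-only and 48% of the 10 h-only regions. The median width was 1586 bp, against 838.5 bp for the 1 h-only and 854 bp for the 10 h-only regions. It was 2385 bp for those called in all 6 WT lists and 636 bp for all merged regions. A call needs an overlap of 1 bp, and the part of width in the H3K4me1 and RAD21-line shares below was not tested. Within a region the summits of 1 h replicate 2 and 10 h replicate 1 lay a median of 178 bp apart, and the summits of all 4 Nutlin-3a lists spanned a median of 380 bp.

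The regions were spread over 331 different nearest coding genes. Only 13 genes were nearest to 2 or more, and RNF187, a ubiquitin ligase gene, to 3. Of the 59 p53 target genes listed, 2 were nearest to a region, GADD45A among them, which makes 0.580% of the regions against 0.485% of all regions. GADD45A encodes a stress sensor that slows the cell cycle. Its region, shown above, had percentiles of 19.2 and 4.84 at 1 h and 68.3 and 67.7 at 10 h, with no overlap. The classical targets CDKN1A and MDM2 had no region of this kind nearest to them. A region with a peak in either 0 h list cannot pass the rule, so this does not tell whether H3K27ac rose there. MYC was the only gene of the immediate early list (0.290% of the regions against 0.388% of all) and, with RNF43, of the Wnt list (0.580% against 0.456%). It was nearest to a region in an intron of PVT1 125554 bp away, at 10.7 and 49.9 and then 52.8 and 54.1. RNF43, which restrains Wnt receptors, held an intronic region at 6.72 and 53 and then 27.8 and 40.7.

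For the adhesion list the genes were DST and PLEC, which anchor hemidesmosomes, and for the TGF-beta list the signal transducers SMAD2 and SMAD3. Each list made up 0.580% of the regions, against 0.275% and 0.299% of all regions. The intronic SMAD3 region had percentiles of 38.5 and 56.5 at 1 h and 62.8 and 64.7 at 10 h. FASN, the fatty acid synthase gene, was the only one of the cholesterol list (0.290% against 0.196%). No region was nearest to a gene of the lists for EGFR and ERBB signalling, intestinal transcription factors, the integrated stress response or cohesin and CTCF, which were nearest to 0.164% to 0.202% of all regions each, less than 1 region in 345.

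Over the 22 coding promoters, 19 (86.4%) ranked higher at 10 h by mean percentile, and 15 (68.2%) against 1 h replicate 2 alone. The strongest was SPEF1, a ciliary microtubule protein gene, at 53.3 and 61.3 and then 54.1 and 60.5, which shows no separation of the times. At RAB13, a small GTPase of tight junctions, the percentiles were 10.9 and 70.9 at 1 h, then 74.1 and 73.1 at 10 h. EPS8L1 had 11.5 and 58.4 and then 75.3 in both lists. The promoter region of MDM4, the p53 inhibitor related to MDM2, was named after its values were seen, and its percentiles were 5.04 and 27.1 at 1 h, then 60.0 and 62 at 10 h.

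Before treatment, 290 regions (84.1%, Wilson 95% interval 79.8 to 87.5) had an H3K4me1 peak in both 0 h lists and 45 (13%) in neither. The interval, like the others here, covers counting error only, and neighbouring regions are not independent. The same share was 82.3% for the 1 h-only regions, 23.3% for the 10 h-only regions, 99.3% for those called in all 6 WT lists and 54.9% for all regions. At 1 h the share was 85.2% and at 10 h 89.9%, and 283 regions had H3K4me1 in all 6 lists and 18 in none. At the regions that had it, the median H3K4me1 percentile was 76.5 to 81.7 in the 6 lists, near the 77.8 to 80.4 of all merged regions. It was 71.4 to 80.6 for the 1 h-only regions and 83.3 to 85.1 for those called in all 6 WT lists. Gained H3K4me1 at 10 h (both 10 h lists, neither 0 h list) was found at 17 regions (4.93%), against 1.13% of all H3K27ac regions and 5.26% of the 10 h-only ones. At 1 h it was 3 regions (0.870%, against 0.983% of all), and 2 lost it at 1 h (0.580% against 0.467%) and 0 at 10 h (against 0.571%), which is near the share of all regions.

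**Figure D3:**
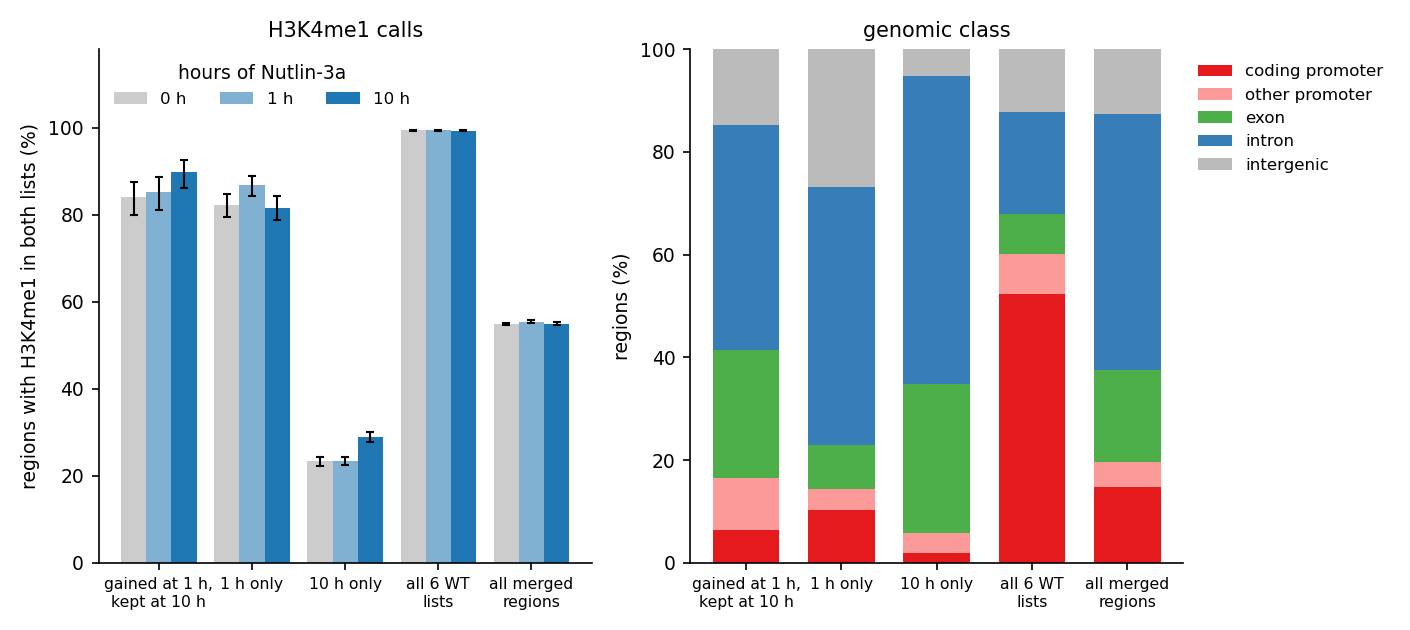
Share of regions (y axes, percent) with H3K4me1 in both lists at 0, 1 and 10 h (left, bars with Wilson 95% intervals of counting error) and by genomic class (right, stacked) for the 345 regions, the 1 h-only, the 10 h-only, the regions called in all 6 WT lists and all merged regions. The 345 regions have H3K4me1 at 0 h about as often as the 1 h-only ones (84.1% and 82.3%), and far fewer coding promoters than the regions called throughout (6.38% and 52.3%).

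The 45 regions without H3K4me1 at 0 h ranked higher at 10 h in 40 cases (88.9%), by a median of 36.6 points, and 8 of them held a p53 response element. The strongest of them lay in USP34 nearest to C2orf74, at 39.3 and 52.9 and then 66.2 and 68.2, and had H3K4me1 in none of the 6 lists. PFKL, phosphofructokinase of the liver type, had 24.5 and 44.1 at 1 h and 73.7 and 75.3 at 10 h. CASZ1, a zinc finger factor gene, had 45.6 and 19.7 and then 74.8 and 75.3. Both, like MED4 of the Mediator complex, had H3K4me1 in no list at 0 h or 1 h and in both at 10 h. GET4 had an H3K4me1 call in 1 list, at 1 h.

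A p53 response element was searched on both strands of the 300-base windows as 2 decamers, 0 to 13 bases apart, each with the core letters C and G around a pair of A or T, and at most 2 mismatches in the flanks. It was found in 28 windows (8.12%), against 8.37% of the 10 h-only regions, 1.54% of the 1 h-only regions, 1.61% of those called in all 6 WT lists and 2.92% of all regions. Of the 28, 3 had 0 mismatches, 8 had 1 and 17 had 2, and 16 had no spacer. The 28 regions ranked higher at 10 h in 27 cases (96.4%), also against 1 h replicate 2 alone, and their median mean percentile was 21.5 at 1 h and 62.6 at 10 h. The other 317 had 30.3 and 47.5. For the 345, the 10 h-only regions and those called in all 6 WT lists, the window lay at the summit of 10 h replicate 1. The 1 h-only regions have no 10 h peak, and theirs lay at 1 h replicate 2. Among all merged regions the list that gave the summit varied. At the summit of 1 h replicate 2 the element was found in 19 of the 345 (5.51%), the like value for the 1.54%. The 28 were thus picked at a 10 h summit and ranked in lists that the choice of regions used. Their ranks are a description, and those of the 19 were not compared. A match describes the letters and not p53 binding.

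Near GPBP1 the element GGGCTTGCCTAAACATGTCC went with 8.19 and 35.3 at 1 h and 67.0 and 64.3 at 10 h, and no list of the RAD21 line called it. The C6orf58 region had 28.4 and 35.3 and then 72.1 and 69.5, and was called in all 4 lists of that line. In both regions each 10 h list lay above each 1 h list.

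The AP-1 motif TGACTCA was in 40 windows (11.6%) against 7.88% of all windows, 12.7% of the 1 h-only and 4.68% of the 10 h-only ones. The TCF/LEF motif ATCAAAG was in 14 (4.06%) against 2.73%, and the TEAD motif ACATTCC in 16 (4.64%) against 3.49%. All were searched on both strands of the same windows, so those of the 1 h-only regions again lay at a 1 h summit. The median GC content of the windows was 50.3%, against 52.3% for all regions, 50.0% for the 10 h-only, 49.7% for the 1 h-only and 61.0% for those called in all 6 WT lists.

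In the RAD21 line, 178 of the 345 regions (51.6%, Wilson 95% interval 46.3 to 56.8) had H3K27ac in both lists at 0 h, before any Nutlin-3a. The share was 23.8% for the 1 h-only, 10.4% for the 10 h-only regions, 92.1% for those called in all 6 WT lists and 30.1% for all regions. A further 66 were called in 1 of the lists at 0 h, so 244 (70.7%) were seen in at least 1 and 101 (29.3%) in neither, against 52.9% and 47.1% of all regions. These lists all carry the name form of the 10 h WT lists, and the part of the form in the difference from the WT lists at 0 h was not tested. In at least 1 list of the RAD21 line 313 regions (90.7%) were called and in none 32 (9.28%), against 67.3% and 32.7% of all regions.

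The same gain as in WT, both lists at 1 h and neither at 0 h, was found in the RAD21 line at 56 regions (16.2%, interval 12.7 to 20.5), against 4.60% of all regions, 22.8% of the 1 h-only, 3.33% of the 10 h-only and 2.34% of those called in all 6 WT lists. Of the 56, 54 lay outside promoters, 55 had H3K4me1 in both 0 h lists and 1 had a p53 response element. Their median percentile was 22 and 47 in the WT lists at 1 h and 42.5 and 45.3 at 10 h. Against 1 h replicate 2, only 25 (44.6%) ranked higher at 10 h. The TCF/LEF motif was in 6 of their windows (10.7%) and AP-1 in 5 (8.93%). The opposite, both lists at 0 h and neither at 1 h, was found at 14 regions (4.06%), against 2.87% of all regions.

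**Figure D4:**
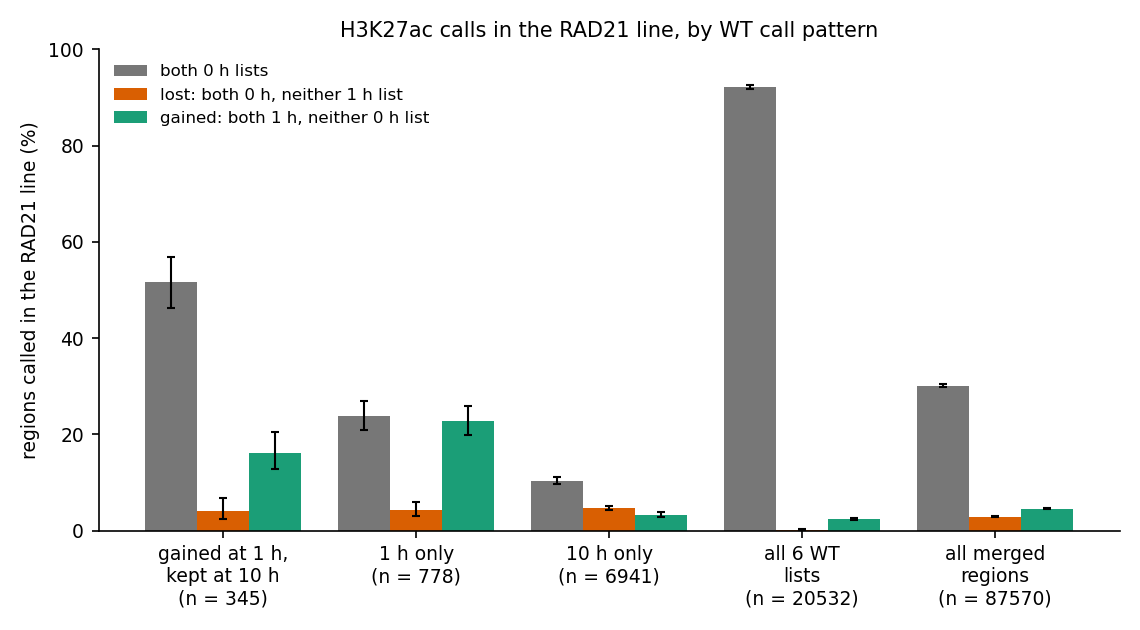
Share of regions (y axis, percent) called in both lists of the RAD21 line at 0 h (grey), lost there at 1 h (orange) and gained there at 1 h (green), for the same sets of regions (x axis), with Wilson 95% intervals of counting error. The 345 regions stand at 51.6% and 16.2%, the 10 h-only regions at 10.4% and 3.33%.

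The promoter of EDN1, shown above, had WT percentiles of 38.0 and 47.3 at 1 h and 52.8 and 49.9 at 10 h and RAD21-line percentiles of 41.2 and 32.0 at 1 h. ZBED2, a transcription factor gene, was the other coding promoter gained in both lines. In an intron of DAP, the death-associated protein gene, the WT percentiles were 24.7 and 62.8 and then 71.8 and 67.0, and those in the RAD21 line at 1 h 63.8 and 61.7. GIPC2, a scaffold protein gene, had 59.1 and 64.8 in WT at 1 h, 42.0 and 53.5 at 10 h, and 50.6 and 43.7 in the RAD21 line. EDN1 and DAP thus ranked higher in WT at 10 h than the mean at 1 h, and GIPC2 lower. BCAR3, which encodes an adaptor of integrin signalling, had 18.1 and 54.7, then 51.7 and 61.9, and 60.9 and 51.9 in the RAD21 line. Others named by the same rule were nearest to C2orf74, SLC6A16, VPS13D, PPP2CA and ARSG. A region 75172 bp from F3, the tissue factor gene, and one 360228 bp from BCL2L11, which encodes the apoptosis activator BIM, were also gained in both lines and were named after their values were seen.

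Of the 22 coding promoters, 18 (81.8%) were called in both lists of the RAD21 line at 0 h, several of them high. All 4 lists of the line called 16 of the 22, against 11082 of the 12879 coding promoter regions among all merged regions. The RSPH14 promoter, of a radial spoke protein gene, stood there at percentiles of 92.5 and 93.1 at 0 h and 66.9 and 61.8 at 1 h. For DLG4, the scaffold protein PSD-95, the percentiles were 88.9 and 86.7 and then 66.4 and 63.7. RAB13 had 88.1 and 91.1 and then 76.7 and 72.4. RSPH14, DLG4 and RAB13 were thus in the upper part of the RAD21-line lists before Nutlin-3a, and in no WT list at 0 h.

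Strength in the RAD21 line was tested at the 22451 regions called in all 4 of its lists, 153 of them among the 345. Regions missing from any of these lists could not enter, the 56 gained there at 1 h among them. The changes below thus leave out those gains. The test was limma on normal scores of the rank within each list, with Benjamini-Hochberg adjustment over all regions fitted and a threshold of 0.05. At 1 h, 22 of the 153 (14.4%) were higher and 34 (22.2%) lower, against 18.9% and 16.7% of all regions fitted. The higher calls fell to 8 without 1 h replicate 1, 9 without 1 h replicate 2 and 10 with ranks by fold, where all regions fitted gave 13.6%, 12.9% and 9.89%. With ranks by fold the lower calls fell to 19, against 10.5% of all. The median change was -0.12 normal-score units for the 153 and 0.03 for all. Of the 16 coding promoters fitted, 7 (43.8%) were lower and 0 higher, against 17.3% and 24.3% of the 11082 coding promoter regions fitted in all. With 2 lists a group, the exact permutation test of a single region cannot go below p = 0.333, so single regions were read only from this fit.

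The 3 regions with the lowest p-values lay over coding promoters. RSPH14 changed by -1.41 (SE 0.0954, limma adjusted p = 1.4e-06), DLG4 by -1.02 (SE 0.100, adjusted p = 1.3e-05) and SPEF1 by -0.98 (SE 0.0931, adjusted p = 1.0e-05). RAB13 changed by -0.73 and GPC1, a cell-surface proteoglycan gene, by -0.48. The intronic SMAD3 region fell from percentiles of 80.5 and 82.7 to 59.5 and 50.9, a change of -1.11 (SE 0.127, limma adjusted p = 4.3e-05). Among those that rose, ACTG1 went from 62.5 and 67.8 to 82.7 and 79.2 (0.74, SE 0.105, limma adjusted p = 0.000198). C11orf24 went from 31.8 and 56.3 to 76.1 and 70.1 (1.22, SE 0.206). The region nearest to SOCS3, the cytokine signalling inhibitor, went from 37.6 and 31.5 to 61.6 and 62.2 (1.10, SE 0.200). In each of these regions the lists at 0 h and 1 h did not overlap. MYC, with 40.6 and 28.7 at 0 h and 18.6 and 18.8 at 1 h, did not pass the test (limma adjusted p = 0.389). Nor did MDM4, with 18 and 35 and then 46.2 and 41.

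**Figure D5:**
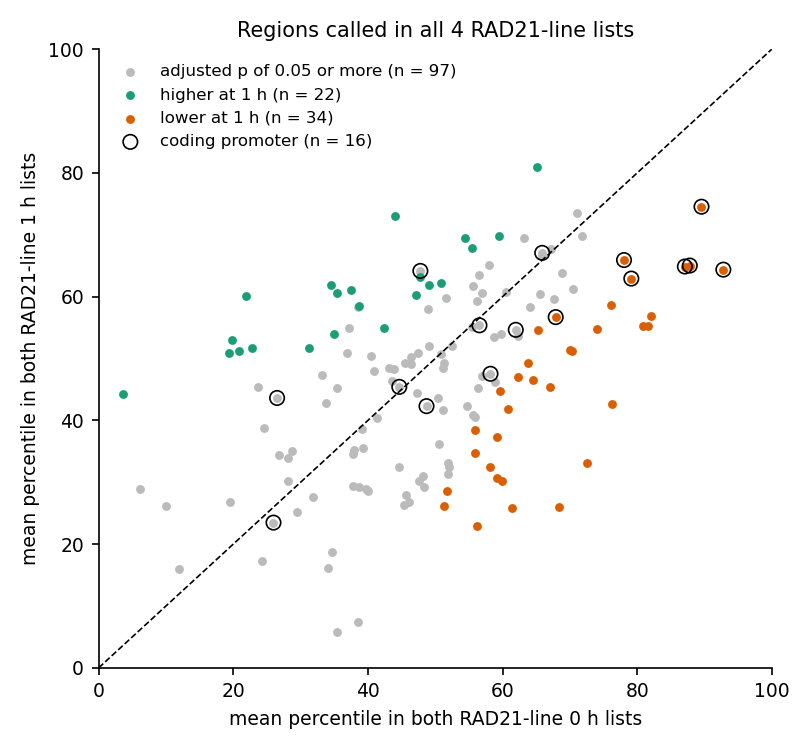
Mean percentile in the RAD21 line at 1 h (y axis) against that at 0 h (x axis) for the 153 regions called in all 4 of its lists, coloured by the limma call, with coding promoters circled. The 34 lower regions lie below the line of equal rank and the 22 higher ones above it, and the coding promoters RSPH14, DLG4 and SPEF1 are among the lower.

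H3K4me1 strength was tested in the same way over the 60476 H3K4me1 regions called in all 6 lists, 284 of which overlapped one of the 345. At 1 h, 8 of the 284 (2.82%) were higher and 1 (0.352%) lower, against 0.291% and 0.304% of all. At 10 h, 11 (3.87%) were higher and 0 lower, against 0.615% and 0.0231% of all. At an unadjusted p under 0.05, limma gave 67 (23.6%) at 1 h and 50 (17.6%) at 10 h in either direction, against 15.5% and 8.66% of all regions fitted. The calls rested on the settings of the fit, since with ranks by fold, or without a mean trend in limma's variance, 0 were called at either time, and leaving out any single 0 h or 1 h list gave 0 higher at 1 h. At 10 h the number higher was 0 to 10 when 1 list was left out.

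The H3K4me1 that rose at 10 h included that at the promoter of CEL, a pancreatic lipase gene (2.10, SE 0.225, limma adjusted p = 0.00121). It also rose next to NPC1L1, the intestinal cholesterol transporter (1.33, SE 0.176), and at ARID3A, a DNA-binding protein gene (1.36, SE 0.191). The H3K27ac percentiles at CEL were 21.5 and 24.0 at 1 h, then 65.9 and 64 at 10 h, so the 10 h ranks lay above the 1 h ranks there, in lists that the choice of regions used. At 1 h, H3K4me1 was higher at TNK2, a tyrosine kinase gene (1.84, SE 0.255, limma adjusted p = 0.00496), at MAP7D1 and at NPIPB12, and lower at ZCCHC14.

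Just inside the rule were regions whose weakest WT call barely passed the peak caller's limit. The lowest −log10 q-value was 1.33 at UBAP2L, 1.36 at UBE2G2, 1.45 at ARHGAP24 and NSUN6 and 1.47 at IFNE. Just outside lay regions called in all 4 Nutlin-3a lists and weakly in 1 of the 0 h lists, at a 0 h value of 1.33 for TRAK1, 1.45 for KIF18A, 1.63 for ABHD10, 1.83 for ARHGAP26 and 1.86 for SGMS2. There were 560 regions of this kind, with a median 0 h value of 4.59. A further 2929 were called in no 0 h list and in 3 of the 4 Nutlin-3a lists, and 2548 of these were missing from 1 h replicate 1. Without that list the rule kept 2893 regions in place of 345, so it set their number.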

How the data were processed

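The authors trimmed paired-end reads (Trim Galore 0.6.6), mapped them to GRCh37 with Bowtie2 2.3.2, removed low-quality, duplicate and blacklisted reads and called peaks in each library with MACS2 2.2.7.1, with narrow calling of H3K27ac and broad calling of H3K4me1. Their methods name an input as control, which could not be settled from the files for 3 WT H3K27ac lists. Per the labels and file layout, the deposited lists hold each peak's fold ratio over local background, its −log10 p-value and its −log10 q-value. They hold no read counts, so depth could not be computed from them, and the study's own library statistics were not used here. The 10 input libraries were not used here.

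Peaks that touched or overlapped were merged across the 10 H3K27ac lists and annotated with the GRCh37 gene models given. Peaks were ranked within a list. RAD21-line H3K27ac and H3K4me1 ranks were tested with limma 3.58.1 (R 4.3.3, trend, two-sided) and tested on simulated data. In the RAD21-line fit 90% of 200 changed regions were recovered and in the H3K4me1 fit 24%. Each was shifted by a single normal-score unit, with the same noise level in every region, so these shares do not cover smaller changes. P-values measure only the spread between the deposited replicates, 2 a group. Same-numbered replicates did not deviate together.

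The regions, gene lists and tests were chosen with earlier results of these data known. Named regions are those highest by mean WT percentile (10), gained in both lines (10), over coding promoters (10), nearest to listed genes (up to 3 a list, p53 targets all), without H3K4me1 at 0 h (5), nearest to the thresholds (5 on each side), with the largest rise or fall (3) and first by limma p-value (3). Alternatives changed the q-value limit, overlap, merging, ranking, motif window and mismatches, and left out each list. A few regions that these rules select are not reported here.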

Additional observations from a re-analysis of the deposited data

Results flagged for a closer look

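Of the 345 regions gained at 1 h and kept at 10 h in WT cells, 14 moved the other way in the RAD21 line, where both lists at 0 h called them and neither list at 1 h did. That is 4.06% (Wilson 95% interval 2.43 to 6.70), near the 2.87% of all merged regions that did the same. They are singled out because every list of each line pointed in opposite directions, and the difference between the lines was not tested. They lay nearest to SLC16A1, PDGFA, MAD1L1 (a pair of regions), VKORC1L1, AC005488.1, EPPK1, CR769776.1, AC026369.1, CYFIP1, ANKRD11, NKPD1, UBE2G2 and TBC1D22A. In the RAD21 line at 0 h their peaks were of low to middle rank, for example percentiles of 45.0 and 52.0 at CYFIP1 and 18 and 44.6 at UBE2G2. H3K4me1 was present in both WT lists at 0 h at 5 of the 14 and in neither at 6, and 0 held a p53 response element.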

How the results depend on the processing

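The number of regions, 345, depended most on 1 list. It was 439 to 2893 when 1 WT list was left out, and the top value came without 1 h replicate 1, 655 without 0 h replicate 1, 595 without 0 h replicate 2 and 529 without 1 h replicate 2. It was 83 when calls needed a −log10 q-value of 5, and 101 with absence from the RAD21 line at 0 h also required. It was 1028 where a list's peaks had to cover 50% or more of a region to count as a call. That coverage limit held at 0 h too, so it let in regions with a 0 h peak over less of their width. The share called in both RAD21-line 0 h lists was 43.4% at the stricter q-value, 66.7% with the coverage limit and 41.8% to 53.4% with 1 list left out. The share gained there was 11.2% to 20.8% with 1 list left out. H3K4me1 in both 0 h lists was found at 88.2% with the coverage limit and 66.3% to 88.9% with 1 list left out, and coding promoters made up 9.64% at the stricter q-value, 44.7% with the coverage limit and 5.15% to 7.06% with 1 list left out. The share ranking higher at 10 h was 96.4% at the stricter q-value, 71.7% to 93.4% with 1 list left out and 63.2% against 1 h replicate 2 alone, a comparison chosen after seeing the data. A p53 response element was found in 0.870% with no mismatch allowed, against 0.202% of all merged regions and 0.908% of the 10 h-only ones. With at most 4 mismatches it was 29.3%, against 18.1% and 34.4%. Over the whole region it was 23.5%, against 16.2% of the 10 h-only regions and 15.5% of those called in all 6 WT lists. These differ in width, at a median of 1586, 854 and 2385 bp. At the summit of 1 h replicate 2 it was 5.51%, a window also chosen after seeing the data. In the RAD21-line fit the regions higher numbered 10 when ranked by fold, 13 at the stricter q-value and 8 to 30 with 1 list left out, and those lower 19 by fold and 26 to 41. By fold these were 6.54% higher and 12.4% lower of the 153, against 9.89% and 10.5% of all. At the stricter q-value only 86 regions were fitted, so the 13 higher made 15.1%, against 21.5% of all. In the main fit these shares were 14.4% and 18.9%. The lower at the stricter q-value were 25 (29.1%), against 18.5% of all. With 1 list left out the median change of the 153 was -0.169 to -0.0280. For H3K4me1 at 1 h, 0 were higher and 0 lower by fold (against 0.00331% and 0.00661% of all) and 0 without a trend (against 0%). At the stricter q-value 234 were fitted, and 1 (0.427%) was higher and 1 (0.427%) lower, against 0.156% and 0.244% of all. At 10 h, 0 were higher by fold (against 0.00661% of all), 0 without a trend and 2 at the stricter q-value (0.855% against 0.125%). In each of these, 0 were lower at 10 h. The median change with 1 list left out was 0.0493 to 0.0863 at 1 h and 0.0496 to 0.0797 at 10 h. The cause of these changes was not tested.

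With the replicate number as a block the RAD21-line fit gave 24 higher (15.7%, against 19.3% of all fitted) and 35 lower (22.9% against 16.6%). The H3K4me1 fit gave 9 higher (3.17% against 0.339%) and 1 lower (0.352% against 0.380%) at 1 h. At 10 h it gave 11 higher (3.87% against 0.638%) and 0 lower (against 0.0248%). Same-numbered lists did not deviate together (correlations -0.0343 and 0.000840 to 0.00739), so the numbers pair nothing here. Without read counts, a region absent from a list may lie just under that list's limit.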
